A study of Bos taurus with 22 samples.

Results

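The genes described here are 10 genes of the DNA replication machinery, MCM2, MCM3, MCM4, MCM5, MCM6, MCM7, CDC45, GINS1, GINS2 and PCNA, chosen by symbol from the 27570 genes of the count table. Each symbol matched 1 gene, and all 10 were counted in every one of 22 steers, the lowest count being 36 for GINS2. The samples were jejunal mucosa of Holstein steers, 10 to 12 months of age, in a 2 × 2 factorial. Control steers (n = 5) received water into the abomasum and bovine serum albumin (BSA), the vehicle, under the skin. GLP-2 steers (n = 5) received water and 100 µg of glucagon-like peptide 2 (GLP-2), a gut hormone of the enteroendocrine L cell, per kg of body weight per day. Casein steers (n = 6) received 1.3 g of casein per kg per day and BSA, and casein + GLP-2 steers (n = 6) received both. All steers, controls included, were also infused with raw corn starch at 3.94 g per kg per day, and treatment lasted 7 d. Steers were blocked by body weight, so a steer is named below by its treatment and block number. The steer is the replicate, with 1 mucosal sample each, and each sample holds epithelium, lymphoid tissue and connective tissue in unknown proportions.

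A cell about to copy its DNA first loads the MCM2-7 complex, a ring of 6 related ATPases, onto replication origins, with the help of the origin recognition complex, CDC6 and CDT1. The ring stays idle until the kinases of S phase recruit CDC45 and the GINS complex, which turn it into the active helicase (CDC45, MCM, GINS, or CMG) that unwinds the fork. PCNA is the sliding clamp that then tethers the polymerases to the template. These genes are transcribed under E2F in dividing cells and are low in resting or differentiated cells. In the intestine the dividing cells are those of the epithelial crypts and of lymphoid follicles, whereas villus enterocytes have left the cycle.

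In the cattle assembly ARS-UCD1.2, used for the deposited table, the 6 ring genes lie on 6 chromosomes. MCM6 (ENSBTAG00000015172, chromosome 2, 61489617 to 61524285, plus strand) is the neighbor of LCT (ENSBTAG00000015170, 61535026 to 61583839, plus strand), the gene of lactase. The 2 genes are 10741 bp apart with 0 annotated genes between them. MCM2 (ENSBTAG00000014380) is on chromosome 22 from 59896021 to 59912780, and GINS2 (ENSBTAG00000044006) is on chromosome 18 from 11648869 to 11684545. GINS1 (ENSBTAG00000019984, 53589805 to 53606654) and PCNA (ENSBTAG00000006065, 47430406 to 47436478) are both on chromosome 13. MCM7 (ENSBTAG00000030965, chromosome 25, 36349409 to 36356836) overlaps AP4M1 on the other strand and 3 microRNA genes, MIR25, bta-mir-106b and bta-mir-93. Whether the counting used strand is not given in the sources used here, so reads of MCM7 and AP4M1 cannot be told apart where they overlap. None of the other 9 genes overlapped an annotated gene.

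Total gene counts ranged from 8809666 to 28447810 per steer, with a median of 12028560.5. Levels are given below as CPM, the counts of a gene scaled to a fixed library total, after TMM scaling, which corrects for library size and composition. Across steers the level of the 10 genes had little relation to depth, with Pearson r from −0.08 to 0.05 against log2 total counts (n = 22, description only). Genes with at least 1 count numbered 15372 and 15318 in control steers 3 and 5. In casein steers 1, 2 and 3 they numbered 15140, 14821 and 15681. Every other steer had 17085 or more, control steer 1 among them with 17132. The relation of the 10 genes to this number was not tested. Villus enterocyte genes were counted in every steer, but their summed level was 2910 CPM in the lowest control steer and 131359 CPM in the highest casein + GLP-2 steer. LGR5, a marker of crypt stem cells, was at 0 counts in 10 of the 22 steers.

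Levels were compared between genes only per kilobase of gene length. On that scale (CPM per kb, mean ± SD over 22 steers), PCNA was highest at 50.5 ± 34.8, followed by MCM7 at 24.3 ± 17.5. The other ring genes lay between 11.5 ± 7.43 for MCM4 and 18.8 ± 17.0 for MCM5. GINS1 at 10.5 ± 3.61 and GINS2 at 9.77 ± 8.99 were close to MCM4, and CDC45 was lowest at 5.27 ± 2.78. Each gene in this order differed from the next by less than the SD of the higher one. That SD is a spread between steers, in which most of the genes moved together, so it does not measure how steady the order was within a steer. Of the summed ring level per kb, MCM7 made up 23.7% ± 1.27 (SD, n = 11) in BSA steers and 24.4% ± 3.48 (SD, n = 11) in steers given GLP-2. MCM4 made up the smallest share, 11.1% ± 1.42 and 12.3% ± 1.22 in the same groups. In every steer MCM7 made up at least 19.4% and MCM4 at most 13.8%.

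MCM2, a subunit of the ring that also holds histones at the fork, was 91.7, 28.8, 196, 34.3 and 157 CPM in control steers 1, 2, 3, 4 and 5. In GLP-2 steers 1, 3, 4, 5 and 6 it was 55.6, 27.1, 37.3, 21.9 and 21.6 CPM. Control steers 1, 3 and 5 were above every GLP-2 steer, whereas control steers 2 and 4 lay within the GLP-2 range. In casein steers MCM2 ran from 17.6 CPM through a median of 43.8 to 108 CPM, and in casein + GLP-2 steers from 20.3 through 25.8 to 31.5 CPM. Casein steers 1 and 3 were high and the lowest casein steer was below all casein + GLP-2 steers, so the groups overlapped.

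MCM5, which with MCM2 forms the gate through which DNA enters the ring, was 108, 26.5, 210.3, 32.5 and 122 CPM in control steers 1 to 5. GLP-2 steers 1, 3, 4, 5 and 6 had 55.4, 23.01, 42.3, 19.9 and 24.3 CPM. The same 3 control steers were high, and MCM5 was above the highest GLP-2-treated steer in 6 of 11 BSA steers. Casein steers ranged from 21.5 through 49.7 to 97.3 CPM, and casein + GLP-2 steers from 15.8 through 25.3 to 32.6 CPM. Of the 11 steers given GLP-2, 11 were below the BSA median of 62.1 CPM.

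MCM6 was 142, 46.4, 143, 44.6 and 108 CPM in control steers 1 to 5. It was 74.5, 30.7, 42.5, 27.7 and 32.1 CPM in GLP-2 steers 1, 3, 4, 5 and 6. GLP-2 steer 1 was above control steers 2 and 4, and only 4 of 11 BSA steers exceeded it. Casein steers ranged from 31.2 through 46.6 to 122 CPM and casein + GLP-2 steers from 32.7 through 40.3 to 45.8 CPM, with the casein + GLP-2 range inside that of casein.

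The other 3 ring genes had the same high and low steers. MCM3 averaged 98.6 ± 53.9 CPM in control (SD, n = 5), 36.8 ± 13.6 in GLP-2 (SD, n = 5), 63.7 ± 36.5 in casein (SD, n = 6) and 33.0 ± 5.38 CPM in casein + GLP-2 steers (SD, n = 6). MCM4 averaged 70.6 ± 40.0, 31.9 ± 12.7, 42.9 ± 21.2 and 25.7 ± 5.01 CPM in the same order. MCM7 averaged 142 ± 87.5, 58.7 ± 19.4, 84.1 ± 42.3 and 44.5 ± 9.23 CPM. For each of the 3, control steers 1, 3 and 5 were high and control steers 2 and 4 were within the range of steers given GLP-2.

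**Figure D1:**
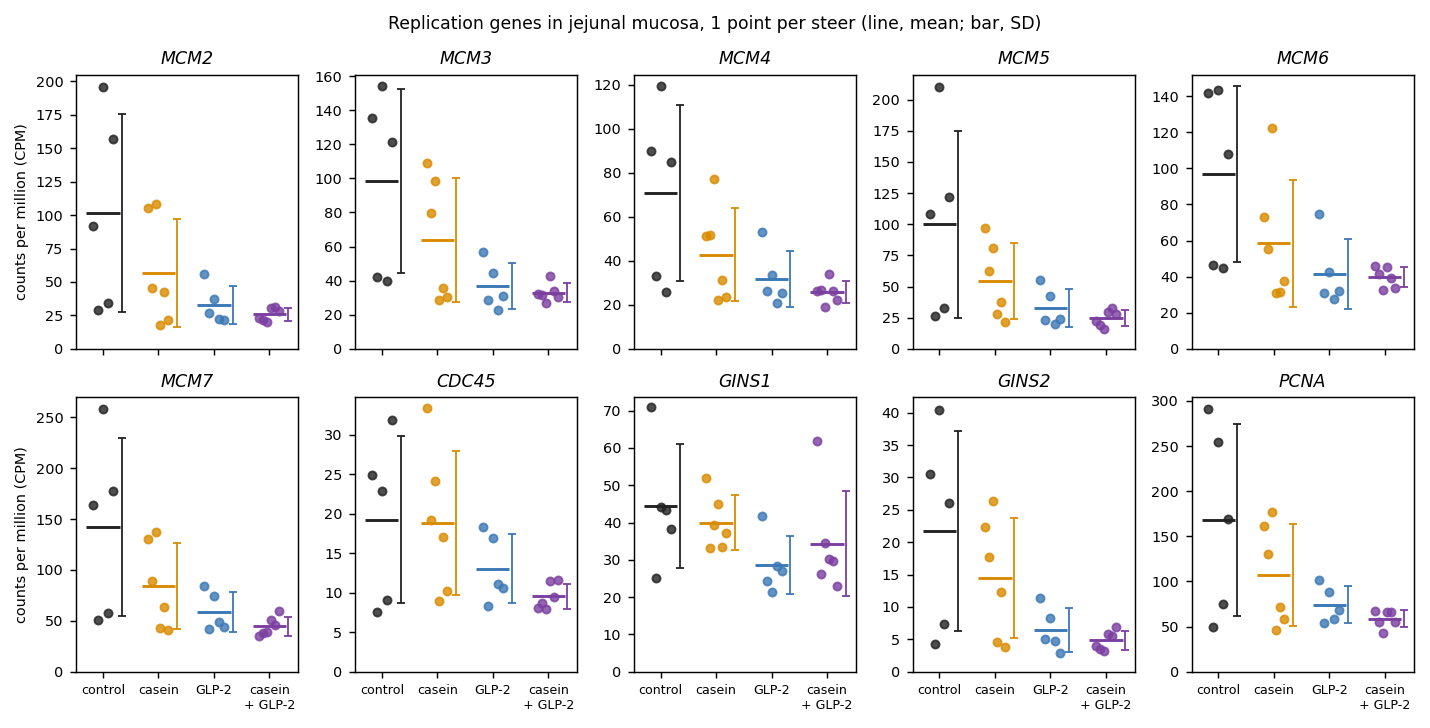
CPM of each of the 10 genes (y axis, linear from 0) in every steer of the 4 treatments (x axis), with the mean as a line and the SD as a bar. Control steers 1, 3 and 5 and casein steers 1, 2 and 3 form the upper points of MCM3, MCM5, MCM7, CDC45 and PCNA, and the other BSA steers lie within the range of steers given GLP-2, except control steer 2, which is below it for CDC45.

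GINS2, a subunit of the GINS complex, was 30.6, 4.26, 40.5, 7.41 and 26.0 CPM in control steers 1 to 5 and 11.4, 4.99, 8.26, 4.68 and 2.81 CPM in GLP-2 steers 1, 3, 4, 5 and 6. Casein steers ranged from 3.75 through 15.0 to 26.3 CPM and casein + GLP-2 steers from 3.22 through 4.72 to 6.87 CPM. In 7 of the 11 BSA steers, control 1, 3 and 5 and casein 1, 2, 3 and 5, GINS2 was above the highest steer given GLP-2, but control steer 2 and casein steers 4 and 6 were below 5 CPM.

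GINS1, another subunit of the same complex, behaved differently. It was 71.0, 25.1, 44.2, 43.4 and 38.3 CPM in control steers 1 to 5, against 41.8, 24.4, 21.4, 28.4 and 26.9 CPM in GLP-2 steers 1, 3, 4, 5 and 6. Casein steers ranged from 33.2 through 38.2 to 52.0 CPM and casein + GLP-2 steers from 22.9 through 30.0 to 62.0 CPM. Only control steer 1 exceeded all steers given GLP-2, and casein + GLP-2 steer 1, low in most other replication genes, held the second highest value of all 22.

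CDC45, which bridges MCM2 and GINS in the active helicase, was 24.9, 7.55, 22.9, 9.06 and 31.8 CPM in control steers 1 to 5. It was 18.3, 8.35, 16.9, 11.2 and 10.6 CPM in GLP-2 steers 1, 3, 4, 5 and 6. It ran from 8.96 through 18.1 to 33.4 CPM in casein and from 7.98 through 9.05 to 11.6 CPM in casein + GLP-2 steers. Control steers 2 and 4 were within or below the GLP-2 range.

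PCNA was 291, 49.4, 254, 75.5 and 169 CPM in control steers 1 to 5 and 101, 54.0, 88.7, 58.3 and 68.9 CPM in GLP-2 steers 1, 3, 4, 5 and 6. Casein steers ranged from 45.6 through 101 to 177 CPM and casein + GLP-2 steers from 42.6 through 60.7 to 67.3 CPM. Again control steers 1, 3 and 5 and casein steers 1, 2 and 3 were the 6 BSA steers above the highest steer given GLP-2, at 101 CPM.

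**Figure D2:**
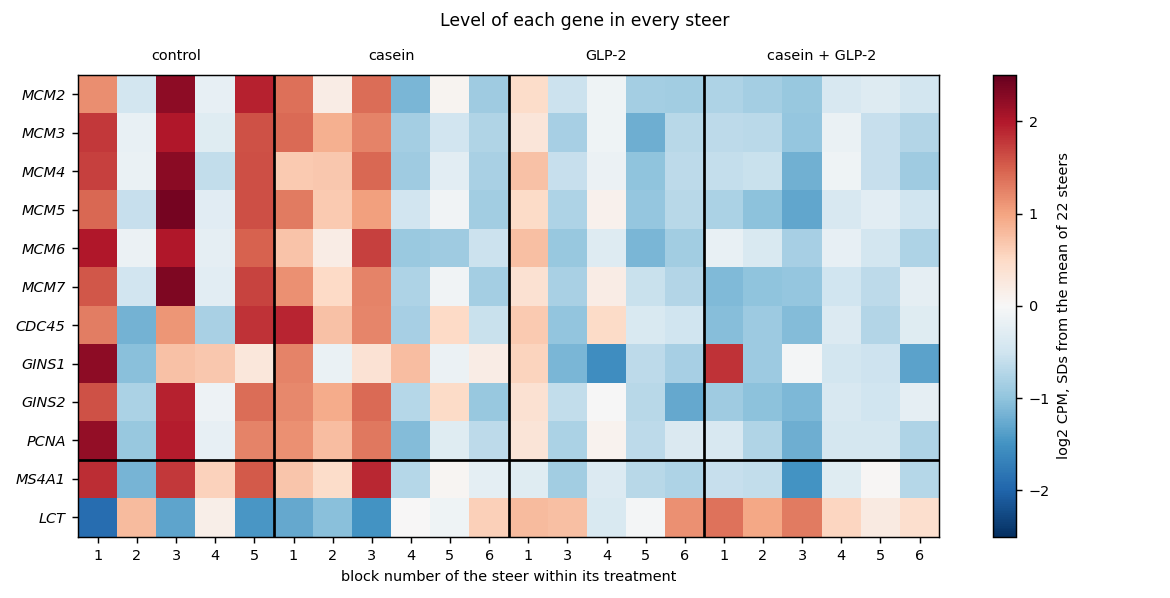
Level of each replication gene, MS4A1 and LCT in the 22 steers, as log2 CPM in SDs from the mean of all steers (color), with steers in columns by treatment and block number. Control steers 1, 3 and 5 and casein steers 1, 2 and 3 are red for MCM2 to MCM7, CDC45, GINS2, PCNA and MS4A1 and blue for LCT, whereas GLP-2 steer 1 is red for the replication genes and LCT and blue for MS4A1.

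Across steers the 10 genes moved together except for GINS1. The 15 pairs within MCM2 to MCM7 had Pearson r of log2 CPM from 0.900 to 0.980 (median 0.955; n = 22 steers), and from 0.867 to 0.968 with the treatment means removed. PCNA with the ring, CDC45 and GINS2 had r from 0.886 to 0.957, and GINS2 with its other partners except GINS1 from 0.865 to 0.966. GINS1 had r from 0.382 to 0.572 with the other 9 genes. These values are descriptions over shared libraries and carry no test.

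The comparison of all steers given GLP-2 (n = 11) with all given BSA (n = 11) asked what the hormone did to the mucosa whatever was infused. Of the 10 genes, 9 were lower with GLP-2 in edgeR's quasi-likelihood test (adjusted p from 0.0202 to 0.0453, Benjamini-Hochberg over 13928 genes). Of all genes tested, 8.37% were called lower. GINS2 fell by 1.68 ± 0.38 on the log2 scale (SE; adjusted p = 0.0202), to 0.311 of its BSA level, and was below the BSA median in 11 of 11 steers. MCM2 fell by 1.42 ± 0.36 (adjusted p = 0.0229), MCM5 by 1.41 ± 0.34 (adjusted p = 0.0222) and MCM3 by 1.20 ± 0.28 (adjusted p = 0.0202). MCM7 and PCNA were at 0.461 and 0.487 of their BSA level, MCM4 and MCM6 at 0.513 and 0.532, and CDC45 at 0.584 (adjusted p = 0.0453). GINS1 was at 0.758 of its BSA level and did not pass (log2 fold change −0.40, 95% interval −0.77 to −0.03, adjusted p = 0.115).

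The count of 9 genes was also found with DESeq2, which called 12.9% of genes lower, and before adjustment all 10 passed 0.05 in edgeR, as did 18.1% of genes in that direction. With the block as a term in the edgeR fit, 3 genes passed, GINS1 (0.0494), GINS2 (0.0489) and MCM3 (0.0489), and the other 7 had adjusted p from 0.0512 to 0.0845. The count was 5 without control steer 1, without control steer 3 or without casein + GLP-2 steer 3, and 5 to 9 over all 22 steers left out in turn. In bulk tissue, fewer dividing cells and less RNA per cell cannot be told apart.

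Casein against water (12 against 10 steers) addressed the effect of protein supply. No member of the set was called by edgeR, where 0% of 14096 genes were, and before adjustment 0 of 10 passed 0.05, against 1.84% of genes on the lower side. DESeq2 called 0 of the 10 genes and 0.0355% of all genes. The log2 fold changes ran from −0.75 for MCM5 (95% interval −1.63 to 0.13) to 0.03 for GINS1 (95% interval −0.38 to 0.44). For the ring genes the intervals include both no difference and a level more than 1 log2 unit lower.

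Within each infusion the differences kept their direction but passed the adjusted threshold in no gene by edgeR. GLP-2 against control (5 against 5) gave 0 of 10 by adjusted p, with 0% of 15086 genes called, and 9 of 10 lower at an unadjusted p of at most 0.05, against 8.35% of genes. DESeq2 called MCM3 and MCM5 lower there, with 1.6% of genes called lower. MCM2 had a log2 fold change of −1.60 ± 0.52 (SE, adjusted p = 0.210) and CDC45 of −0.53 ± 0.38 (adjusted p = 0.531). Without control steer 2, in which the replication genes were low, 6 genes passed in edgeR, MCM2, MCM3, MCM5, MCM7, GINS2 and PCNA, with adjusted p from 0.0394 to 0.0454.

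Casein + GLP-2 against casein (6 against 6) also gave 0 of 10 by edgeR's adjusted p, with 0% of genes called. At an unadjusted p of at most 0.05, 8 of 10 genes, all but MCM6 and GINS1, were lower, against 14.2% of genes, and DESeq2 called GINS2 alone, with 4.23% of genes called lower. GINS2 had a log2 fold change of −1.61 ± 0.52 (SE, adjusted p = 0.122), CDC45 of −1.01 ± 0.35 (adjusted p = 0.131) and MCM6 of −0.59 ± 0.35 (adjusted p = 0.299).

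Whether GLP-2 acted differently with and without casein was tested by the interaction term. It was called for 0 of 10 genes in edgeR, as for 0% of 15086 genes, with 0 of 10 and 4.28% of genes at an unadjusted p of at most 0.05, and DESeq2 called 0 of 10 and 0.0133% of genes. The interaction ranged from −0.48 (CDC45, 95% interval −1.56 to 0.59) to 0.60 (MCM6, 95% interval −0.49 to 1.68) on the log2 scale. Casein against control gave 0 of 10 genes by edgeR (0% of genes adjusted, 5.66% unadjusted) and by DESeq2 (0.0663% of genes). Casein + GLP-2 against GLP-2 gave 0 of 10 by both tools (0% and 0.0332% of genes adjusted), with 2.64% of genes at an unadjusted edgeR p of at most 0.05. In neither comparison did any of the 10 reach an unadjusted p of at most 0.05.

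The level of the replication genes was then set beside 2 genes of other cells. MS4A1 (ENSBTAG00000004580, chromosome 15, 83282746 to 83298109) encodes CD20, a surface protein of B cells. It was 339, 0.799, 294, 28.5 and 179.6 CPM in control steers 1 to 5, and at most 4.95 CPM in GLP-2 steers. Casein steers ran from 2.10 through 16.0 to 360.1 CPM and casein + GLP-2 steers from 0.350 through 2.73 to 9.44 CPM. A group of 4 steers, control 1, 3 and 5 and casein 3, stood 2.37 log2 units above the other 18. Those 4 steers also held the 4 highest mean levels of MCM2 to MCM7.

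LCT, which encodes the brush border enzyme that splits lactose and marks mature villus enterocytes, ran the other way. It was 89.2, 3408, 199, 1425 and 164 CPM in control steers 1 to 5, and from 693 through 3262 to 5547 CPM in GLP-2 steers. Casein steers ran from 156 through 645 to 2608 CPM and casein + GLP-2 steers from 1613 through 3390 to 7498 CPM. A group of 6 steers, control 1, 3 and 5 and casein 1, 2 and 3, lay 1.30 log2 units below the other 16. They are the same 6 steers in which MCM3, MCM5, MCM7, CDC45 and PCNA exceeded every steer given GLP-2.

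Over the 22 steers, all 10 genes were related to MS4A1 and 9 to LCT (permutation test, 100000 resamples, 2-sided, adjusted over 20 pairs). Steers were permuted across treatments, so these pooled p-values include the differences between treatments. MS4A1 and LCT were themselves related, with Pearson r of −0.884 over the 22 steers (permutation p = 1e-05). Their r was −0.890 within BSA steers and −0.500 within steers given GLP-2. The relations to the 2 markers are therefore not independent of each other. For PCNA and MS4A1 Pearson r was 0.927 (permutation p = 1e-05, the smallest the resamples can give; adjusted p = 1.67e-05) and Spearman rho was 0.878 (permutation p = 1e-05, adjusted p = 8e-05). For GINS2 and LCT, r was −0.910 (permutation p = 1e-05, adjusted p = 1.67e-05) and rho −0.864 (permutation p = 1e-05, adjusted p = 8e-05). Without GINS1, r ranged from 0.807 to 0.927 with MS4A1 and from −0.910 to −0.749 with LCT. The corresponding rho ranged from 0.705 to 0.878 and from −0.864 to −0.459. GINS1 had r of 0.544 with MS4A1 (permutation p = 0.00892, adjusted p = 0.00939; rho 0.560, permutation p = 0.00763) and −0.394 with LCT (permutation p = 0.0693, adjusted p = 0.0693; rho −0.308, permutation p = 0.164). Without the 2 steers farthest from the median, control 1 and casein 3 for both markers, the 9 genes kept r from 0.771 to 0.903 with MS4A1 and from −0.882 to −0.626 with LCT.

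**Figure D3:**
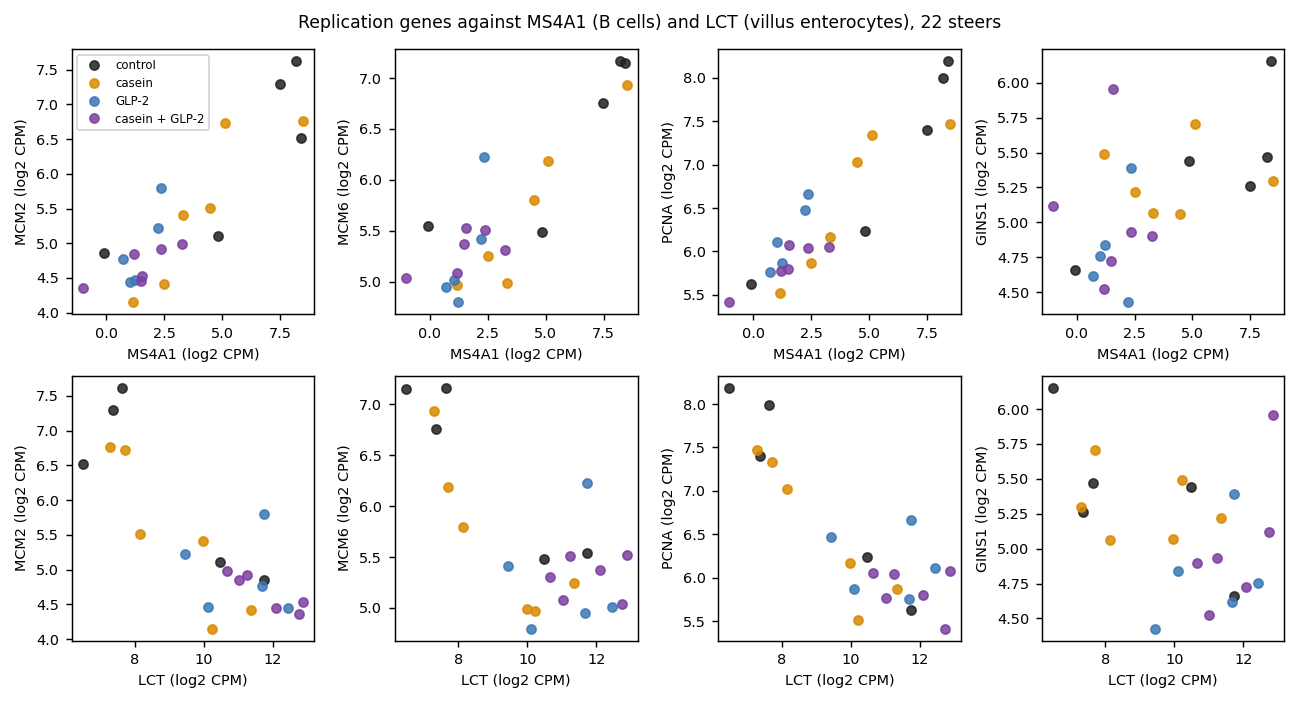
log2 CPM of MCM2, MCM6, PCNA and GINS1 (y axes) against log2 CPM of MS4A1 (upper row) and LCT (lower row) in the 22 steers, colored by treatment. The 4 steers highest in the mean of MCM2 to MCM7 lie at high MS4A1 and low LCT, GLP-2 steer 1 (MCM6 at 74.5 CPM) lies at 4.95 CPM of MS4A1 and 3414 CPM of LCT, and GINS1 is scattered.

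The pooled relations joined separate groups of steers. Among the 18 steers below the gap in MS4A1, r with MS4A1 was 0.540 to 0.799 and r with LCT −0.818 to −0.319 for the 9 genes without GINS1, and 9 of 10 pairs with MS4A1 and 8 of 10 with LCT passed the adjusted permutation test. Among the 16 steers above the gap in LCT, the same 9 genes had r of 0.294 to 0.661 with MS4A1 and −0.603 to 0.204 with LCT. There 0 of the 20 pairs, those of GINS1 included, passed the adjusted permutation test. Among the 6 steers below that gap, the 9 genes had r of 0.043 to 0.975 with MS4A1 and −0.764 to −0.217 with LCT. Again 0 of 20 pairs passed. Both of these subsets were split on LCT itself, which narrows its range within each.

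Within the 11 BSA steers, the 9 genes had r of 0.798 to 0.932 with MS4A1 and −0.945 to −0.851 with LCT, and 9 of 10 pairs with MS4A1 and 10 of 10 with LCT passed. Within the 11 steers given GLP-2, the 9 genes had r of 0.442 to 0.725 with MS4A1 and −0.593 to 0.097 with LCT. There 0 of 20 pairs passed, those of GINS1 included. The difference between the BSA and GLP-2 relations was not tested. With the treatment means removed, r of the 9 genes was 0.795 to 0.911 with MS4A1 and −0.858 to −0.681 with LCT. The relation in the pooled steers therefore did not rest on differences between treatment means alone. These values pool steers of all treatments and do not show that the relation held within each. In steers given GLP-2, MS4A1 ran from 0.350 to 9.44 CPM, against 0.799 to 360.1 CPM in BSA steers. LCT ran from 693 to 7498 CPM, against 89.2 to 3408 CPM. With this narrower range and n = 11, the 0 of 20 pairs passing do not show that the relation was absent with GLP-2.

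With the log2 CPM of MS4A1 as a covariate of the GLP-2 comparison, edgeR called 0 of the 10 genes, and 0% of all genes, with 0 of 10 and 2.23% of genes at an unadjusted p of at most 0.05. The 10 fitted levels with GLP-2 were then 0.894 to 1.14 of the BSA level, with PCNA at a log2 fold change of 0.19 (95% interval −0.17 to 0.54) and MCM3 at −0.16 (95% interval −0.60 to 0.28). With LCT as the covariate, edgeR called 0 of 10 and 0% of genes, with 0 of 10 and 1.16% of genes unadjusted, and the 10 levels were 0.801 to 1.17 of BSA. MS4A1 was itself lower with GLP-2 (log2 fold change −5.10 ± 0.89, SE, adjusted p = 0.0171) and LCT higher (1.87 ± 0.59, adjusted p = 0.0407). Each covariate therefore shares its difference with the treatment, and the treatment and the marker cannot be told apart by these fits.

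**Figure D4:**
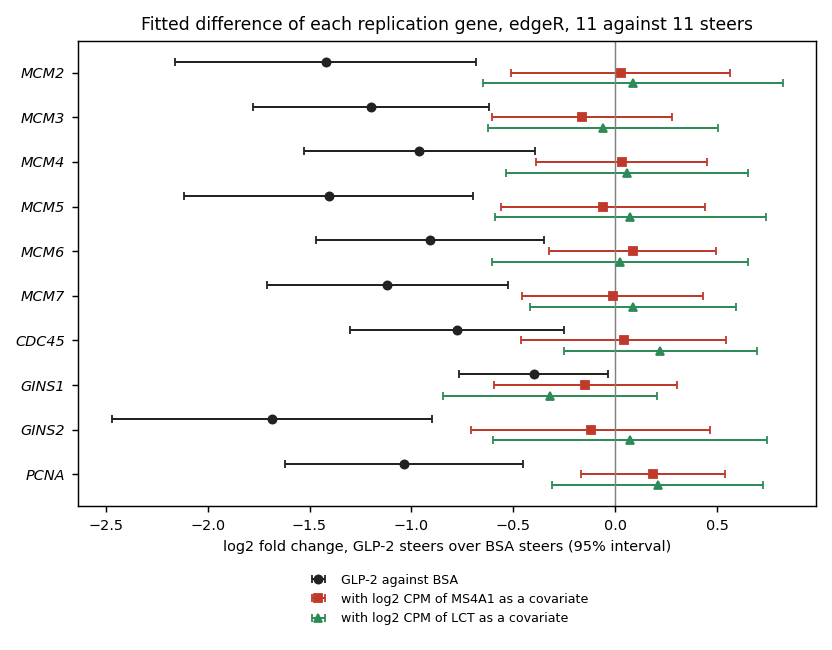
Fitted log2 fold change of each gene, GLP-2 over BSA steers, with its 95% interval (x axis), in edgeR without a covariate and with the log2 CPM of MS4A1 or of LCT as a covariate. Without a covariate all 10 estimates are below 0, from −1.68 (GINS2) to −0.40 (GINS1), and with either covariate all 10 intervals include 0.

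Lists of other cell type markers were read in the same way. All 10 B cell follicle genes tested had a lower estimate with GLP-2, and 9 were called lower, beside 8.37% of all genes. The median over the list was −3.13 on the log2 scale, against 0.0079 over all genes tested. Their summed level was 79.1 to 1665 CPM in control, 53.5 to 1643 in casein, 36.9 to 67.5 in GLP-2 and 42.1 to 94.1 CPM in casein + GLP-2 steers. CD79A, of the B cell receptor, averaged 60.2 ± 72.7 CPM in BSA and 5.75 ± 1.82 CPM in GLP-2 steers (SD, n = 11 each). All 8 germinal center genes had a lower estimate and 7 were called lower, among them BCL6, a transcriptional repressor of germinal center B cells (39.5 ± 25.1 against 21.6 ± 5.25 CPM). Germinal center sums were 48.5 to 508 CPM in BSA steers and 45.2 to 81.5 CPM with GLP-2, and no marker on either list was at 0 in every steer, although PAX5 was at 0 in 9 steers and FCRLA in 4. The part of follicles in the difference of the replication genes was not tested, since the covariate fits cannot tell marker and treatment apart.

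Of 5 plasma cell genes 4 had a lower estimate with GLP-2 (list median −1.69 on the log2 scale) and 2 were called lower, beside 8.37% of all genes. Their sums were 282 to 5414 CPM in BSA and 190.0 to 1969 CPM with GLP-2, with JCHAIN at 1547 ± 1455 and 485 ± 478 CPM and MZB1 at 30.5 ± 30.5 and 10.4 ± 10.97 CPM. Of 7 T cell genes 5 had a lower estimate and 1 was called lower, a count near the share of 8.37% over all genes. T cell sums were 413 to 1534 and 633 to 1221 CPM, with CD3D at 155 ± 85.9 and 153 ± 51.5 CPM and CD3E at 383 ± 154 and 321 ± 74.5 CPM. None of 7 macrophage genes passed (746 to 2062 and 790.3 to 2696 CPM), with CD68 at 62.6 ± 22.2 and 77.8 ± 34.2 CPM and CD163 at 7.14 ± 3.15 and 9.53 ± 4.68 CPM. Of these 3 lists, plasma cell genes followed the replication genes most closely, with a median r over the 10 genes of 0.796 between the list's log2 sum and each gene, against −0.202 for T cells and 0.174 for macrophages.

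All 14 villus enterocyte genes had a higher estimate with GLP-2 (median log2 fold change 0.97), and 2 of 14 passed, against 5.13% of all genes called higher, LCT and SLC5A1, the sodium-glucose cotransporter. SI, sucrase-isomaltase, was 640 ± 470 and 1062 ± 390 CPM in BSA and GLP-2 steers, with an adjusted p of 0.112. The median r of the villus sum with the 10 genes was −0.796. None of 4 crypt stem cell genes tested passed, and their sums were 27.7 to 126 CPM in BSA and 31.7 to 180.0 CPM in GLP-2 steers, with LGR5 at 0.592 ± 0.946 and 0.288 ± 0.436 CPM and OLFM4 at 11.5 ± 6.55 and 15.6 ± 21.1 CPM. Their sum had a median r of 0.390 with the replication genes, against 0.869 for the B cell follicle sum. With treatment means removed, these values were 0.536 and 0.811. Split by infusion, 5 crypt genes were tested and 0 were called. Among water-infused steers the hormone's median log2 fold change was 0.58, with 3 genes higher and 2 lower. Among casein-infused steers it was −1.56, with 4 genes lower, 2 of them at an unadjusted p of at most 0.05, and 1 higher. This difference was not tested for the list as a whole.

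The remaining lists had no gene past the threshold. Goblet cell genes (3 tested) summed to 177 to 2294 CPM in BSA and 394 to 2231 CPM in GLP-2 steers, with TFF3 at 446 ± 308 and 664 ± 336 CPM and SPDEF at 17.1 ± 8.09 and 14.2 ± 6.82 CPM. Enteroendocrine genes (4 tested) summed to 46.2 to 116 and 44.1 to 171 CPM, with CHGA at 54.3 ± 15.6 and 66.5 ± 30.7 CPM and CHGB at 0 in 9 steers. Smooth muscle genes (6 tested) summed to 29.3 to 1360 and 28.4 to 741 CPM, with ACTA2 at 111 ± 97.5 and 55.7 ± 55.5 CPM and MYH11 at 84.99 ± 76.3 and 48.9 ± 69.5 CPM. Stromal genes (6 tested) summed to 74.6 to 1252 and 63.2 to 1893 CPM, with COL1A1 at 88.6 ± 69.2 and 62.7 ± 55.7 CPM and COL1A2 at 100.0 ± 72.7 and 65.1 ± 67.5 CPM. All 6 smooth muscle genes had a lower estimate with GLP-2 (median −1.21 on the log2 scale, 2 of 6 past 0.05 before adjustment), as did all 6 stromal genes (median −0.57, 0 of 6). The smooth muscle sum, highest in a control steer, had a median r of 0.634 with the replication genes, and its part in their difference was not tested.

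Other genes of replication and of the cell cycle were described by lists, named the replication lists here. Beside the steps around the helicase, the lists held 21 G1/S genes, 13 mitotic genes and 3 MCM paralogs. Of 101 such genes tested, edgeR called 36 lower and 3 higher with GLP-2, beside 8.37% of all genes called lower and 5.13% called higher. The count of lower genes was 6 with the block in the fit. It was 9 to 20 when 1 of 10 steers was left out (control 1, 3 or 5, GLP-2 3 or 6, casein 1 or 3, or casein + GLP-2 1, 2 or 3) and 25 to 52 without any other single steer.

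Of 10 genes of origin recognition and licensing, 9 had a lower estimate with GLP-2 and 5 were called lower. CDT1, the loader of the ring, fell by 1.28 ± 0.34 (log2, SE; adjusted p = 0.0242), and GMNN, the inhibitor of CDT1, by 1.17 ± 0.28 (adjusted p = 0.0220). ORC6 was at 0.633 of its BSA level (adjusted p = 0.0272). ORC2, ORC3 and ORC4, subunits of the origin recognition complex, were at 0.890, 0.794 and 0.954 of BSA and did not pass.

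Of 14 firing factors and helicase partners, 11 had a lower estimate and 3 were called lower. GINS4 fell by 1.21 ± 0.29 (adjusted p = 0.0214), TIPIN of the fork protection complex by 0.62 ± 0.17 (adjusted p = 0.0276) and CDC7, the kinase that activates the ring, by 0.55 ± 0.17 (adjusted p = 0.0420). GINS3 was at 0.653 of BSA (adjusted p = 0.0709), so of the 4 GINS subunits GINS2 and GINS4 passed and GINS1 and GINS3 did not. None of the 3 MCM paralogs that act in meiosis or repair rather than at origins passed: MCM8 was at 0.852 (adjusted p = 0.667), MCM9 at 1.1 (adjusted p = 0.467) and MCMDC2 at 1.83 of BSA (adjusted p = 0.255). Their summed level was 9.82 to 21.7 CPM in BSA and 12.9 to 23.5 CPM in GLP-2 steers.

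Downstream of the helicase, 10 of 11 replicative polymerase genes had a lower estimate, 3 were called lower and 1 was called higher. POLD1, the catalytic subunit of polymerase delta, fell by 1.18 ± 0.29 (adjusted p = 0.0226), POLA2 was at 0.562 (adjusted p = 0.0259) and the primase subunit PRIM2 at 0.598 of BSA (adjusted p = 0.0389). POLA1, the catalytic subunit of polymerase alpha, was the gene that rose, by 0.45 ± 0.14 (adjusted p = 0.0424). All 16 genes of clamp loading, strand binding and the lagging strand had a lower estimate. Of these 10 were called lower, among them RNASEH2A at 0.50, RFC2 at 0.484 and FEN1 at 0.467 of BSA (adjusted p from 0.0202 to 0.0226).

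All 6 genes of nucleotide supply had a lower estimate, and 3 were called lower, DUT at 0.415, RRM1 at 0.555 and RRM2 at 0.481 of BSA (adjusted p from 0.0229 to 0.0281). Of 7 chromatin assembly genes 6 had a lower estimate and 4 were called lower, among them UHRF1 at 0.466, ASF1B at 0.545 and CHAF1A at 0.568. All 13 mitotic genes had a lower estimate and 5 were called lower, among them AURKB at 0.409, CCNB2 at 0.419 and BIRC5 at 0.465 of BSA. Of 21 G1/S genes, 3 were called lower and 2 higher, counts near the shares of 8.37% and 5.13% over all genes. Estimates were lower for 12 of the 21 and higher for 9. E2F2 was at 0.398 of BSA (adjusted p = 0.0276), whereas E2F3 was at 1.59 (adjusted p = 0.0290) and RB1, which holds E2F in check, at 1.5 (adjusted p = 0.0305). Median log2 fold changes were −0.57 for licensing, −0.49 for firing, −0.44 for polymerases, −0.75 for clamp loading and the lagging strand, −0.81 for nucleotide supply, −0.60 for chromatin assembly, −0.22 for G1/S and −0.66 for mitosis, against −1.08 for the 10 genes.

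**Figure D5:**
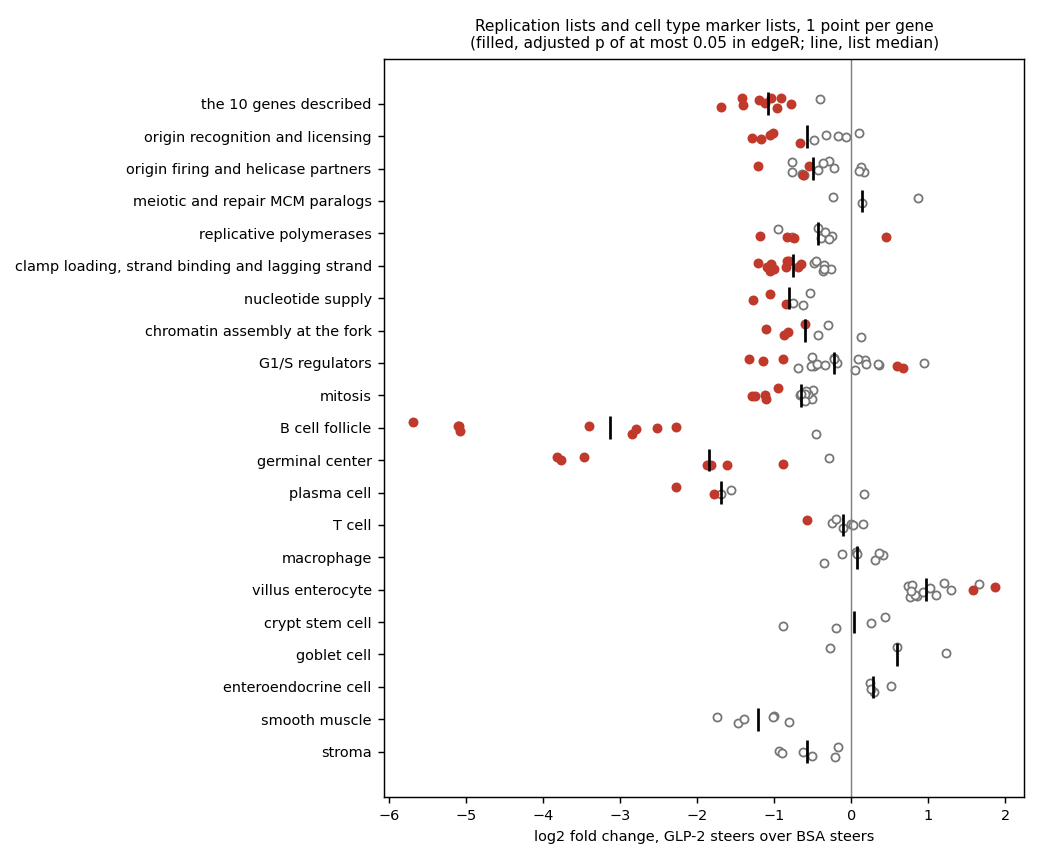
log2 fold change of each gene tested, GLP-2 over BSA steers (x axis), by list (y axis), with filled points for genes called by edgeR at the 0.05 threshold and a line at the list median. The replication lists except the MCM paralogs have medians below 0, from −1.08 for the 10 genes to −0.22 for G1/S, the B cell follicle median is −3.13 and the villus enterocyte median 0.97.

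The 5 genes outside the set whose level was most like that of the ring were then named. Against the mean z-score of MCM2 to MCM7 over 22 steers, and among 13236 genes with a symbol, the highest Pearson r was 0.976 for AURKB, a mitotic kinase. STMN1, a regulator of microtubules, followed at 0.974, then CDT1 at 0.971, CDC20, which activates the anaphase-promoting complex, at 0.962, and UHRF1, a partner of maintenance DNA methylation, at 0.961. With treatment means removed these values were 0.942 to 0.972. MS4A1 stood at rank 112 (r = 0.903) and LCT at rank 13036 (r = −0.849). MCM6 and LCT, neighbors on the chromosome, differed from BSA in opposite directions with GLP-2, to 0.532 and 3.65 of the BSA level.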

How the data were processed

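RNA-seq samples of jejunal mucosa from 22 steers were analysed, and the deposited table holds raw counts per gene and FPKM side by side. Per the labels and the study's methods, the authors aligned reads with HISAT2 (2.0.5) to ARS-UCD1.2, assembled them with StringTie (1.3.3b) and counted reads with featureCounts (1.5.0-p3), with DESeq2 (1.20) for their own tests, and the FPKM values were made by the authors from the counts, gene length and library size. The annotation release and strand setting are not given in the sources used here. Counts were tested with edgeR (4.0.16) in R (4.3.3): TMM scaling, the filterByExpr filter with a minimum count of 10, quasi-likelihood F tests and Benjamini-Hochberg adjustment over all genes that passed, called at 0.05. The pooled comparisons contrasted 11 with 11 and 12 with 10 steers without covariates, and the others were contrasts in 1 fit of 4 treatments. Log2 CPM used a prior count of 2. DESeq2 (1.42.0), limma (3.58.1) on log2(FPKM + 1) and log2(FPKM + 0.1), a replicate block, other scalings and filters, marker covariates and leaving out each steer were alternatives. No counting interval is given, since replicate spread was larger at these depths.

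The block is a body weight block of the study's randomization and pairs steers across treatments. Deviations of steers from their treatment means correlated at a mean r of 0.033 for 30 pairs of the same block and −0.006 for 151 other pairs. The 10 genes and all lists were chosen with earlier results of these data known. Genes named were the 10, MS4A1, LCT, the 3 genes with the smallest p for GLP-2 of each replication list, the first 2 of each cell type list and the 5 most like the ring, except 1 gene that is not reported here. ORC2, ORC3, ORC4, GINS3 and a second set of cell type genes (SLC5A1, PAX5, FCRLA) were named after their values were seen. On simulated counts for GLP-2 against BSA over 13928 genes, 92 of 100 genes changed by 2 log2 units and 56 of 100 changed by 1 were called, with 5 false calls. Each gene was drawn independently there. The simulation therefore lacked the variation that genes of a steer share, and its false calls do not cover that case.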

Additional observations from a re-analysis of the deposited data

How the results depend on the processing

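With GLP-2 against BSA, the log2 fold change of each of the 10 genes stayed negative under 32 settings, from −1.88 to −1.23 for GINS2 and −0.56 to −0.30 for GINS1, but not with a marker covariate. The count of 9 genes lower was 3 with the replicate block, 5 with limma on log2(FPKM + 1), 4 with log2(FPKM + 0.1), 0 with MS4A1 and 0 with LCT as a covariate, and 5 to 9 over the steers left out. The 36 genes of the replication lists were 6 with the replicate block, 20 and 18 with the 2 FPKM settings, 0 with either covariate, and 9 to 52 over the steers left out. Over all genes the fit called 1881 genes, against 2999 with DESeq2, 689 with the replicate block and 0 with either covariate. The causes were not tested. GLP-2 against control gave 2 genes with DESeq2 and 0 to 6 over the steers left out, and casein + GLP-2 against casein gave 1 with DESeq2. The block changed no other call. Members related to MS4A1 and to LCT were 0 and 0 within GLP-2 steers and, in alternatives chosen after seeing the data, 0 and 0 among the 16 and among the 6 steers on either side of the gap in LCT. They were 9 to 10 for both over the steers left out.

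Estimates changed sign as follows. In GLP-2 against BSA with MS4A1 as a covariate, log2 fold changes were MCM2 0.026, MCM4 0.033, MCM6 0.086, CDC45 0.042 and PCNA 0.19. With LCT they were MCM2 0.087, MCM4 0.058, MCM5 0.075, MCM6 0.024, MCM7 0.086, CDC45 0.22, GINS2 0.071 and PCNA 0.21. In GLP-2 against control they were MCM5 0.017, CDC45 0.56, GINS2 0.19 and PCNA 0.31 with MS4A1, and CDC45 0.47, GINS2 0.0030 and PCNA 0.060 with LCT. In casein + GLP-2 against casein they were MCM6 0.21 and PCNA 0.022 with MS4A1, and MCM2 0.29, MCM3 0.16, MCM4 0.19, MCM5 0.19, MCM6 0.32, MCM7 0.20, GINS2 0.085 and PCNA 0.27 with LCT. GINS1 in casein against water (0.031) ran from −0.076 to 0.17 over the steers left out. The r with LCT of MCM6 and GINS1 was 0.097 and 0.587 within GLP-2 steers, and 0.204 and 0.242 among the 16 steers. The log2 ratio of GINS3 to GINS1 ran from −0.17 to 0.019 over the steers left out. Of 1320 refits of single fold changes, 1217 kept both direction and side of the threshold, and 553 of 620 did for the correlations. With 5 or 6 steers a treatment, the width of the intervals limits every comparison within an infusion.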

Other observations

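The balance between subunits was compared after the values of GINS1 had been seen, over 5 ratios within a steer, with a 2-sided permutation test of 100000 resamples. The log2 ratio of GINS2 to GINS1 was −2.53 ± 0.76 in steers given GLP-2 and −1.60 ± 1.11 in BSA steers (SD, n = 11 each; permutation p = 0.0332, adjusted p = 0.0730 over the 5). GINS4 to GINS1 differed by −0.59 (permutation p = 0.0363, adjusted p = 0.0730) and GINS3 to GINS1 by −0.09 (permutation p = 0.666, adjusted p = 0.666). MCM6 to MCM5 differed by 0.40 (permutation p = 0.0438, adjusted p = 0.0730) and MCM2 to MCM6 by −0.32 (permutation p = 0.102, adjusted p = 0.127). None passed the adjusted threshold.

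Body weight, which ran over the 6 blocks, had Pearson r from −0.41 to −0.21 with the log2 CPM of the 10 genes (n = 22, description only).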
